A study of Mus musculus with 56 samples.

Results

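Long terminal repeat (LTR) retrotransposons of the families ERV1, ERVL and ERVL-MaLR were followed while mouse fibroblasts were reprogrammed toward pluripotency, with and without an shRNA against Ctcf. The members are the 239 repeat types that the authors' table of sorted cells assigns to one of these families by name, out of 819 repeat types and 14270 rows in all. ERV1 supplied 88 types, ERVL 59 and ERVL-MaLR 92. Of the 239 types, 72 carry the suffix that marks the internal part of an element (41 of them MaLR), and 167 are LTRs. The rule uses only the family names, and these families were picked for description with earlier results of these data known. Each row pools every genomic copy of a type, and the sources used here do not say whether copies inside genes, or reads matching several copies, were counted. A row is therefore described as repeat-derived RNA and not read as transcription from a viral promoter. No genome sequence is given for any type, since no repeat consensus was used here.

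Endogenous retroviruses are remnants of germline infections. An intact element has an internal part that codes for viral proteins, flanked by LTRs that hold its promoter, and most copies in the genome have been reduced to a lone LTR. ERV1 elements resemble gammaretroviruses such as murine leukaemia virus. ERVL elements include MERVL, whose promoter LTR, MT2_Mm, is used in the totipotent cells of the early mouse embryo. MaLR elements, such as the ORR1 and MT types of rodents, are relatives of ERVL without protein-coding capacity of their own and supply promoters in oocytes and early embryos. In embryonic cells many endogenous retroviruses, though not all types alike, are kept silent by KRAB zinc finger proteins with Trim28 and the histone methyltransferase Setdb1, and by DNA methylation. CTCF is the zinc finger protein that, with cohesin, shapes chromatin loops and domain boundaries.

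The cells were OG2-MEFs, embryonic fibroblasts with a GFP reporter of Oct4, in the TetOn lentivirus system: an inducible OSKM lentivirus (Oct4, Sox2, Klf4 and Myc) with rtTA. Control shRNA (shLuci) or Ctcf shRNA was delivered by retrovirus from Plat-E packaging cells, and the protocols name doxycycline and vitamin C in the medium. All cells of all groups therefore share viral vectors, and whether vector reads entered the murine leukaemia virus-like rows is not given in the sources used here. Each shRNA arm held 11 populations with 2 libraries each: unsorted cells on day 0, Thy1+, SSEA1+ and double-negative (SSEA1-Thy1-) cells on days 3, 6 and 9, and GFP+ cells on day 12. Thy1 marks fibroblasts, SSEA1 marks cells that have started toward pluripotency, and GFP reports an active Oct4 gene. The labels do not say that the 2 libraries of a group came from separate cultures, so p-values measure the spread between libraries only, which may be technical.

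Values are whole-number scores that the authors normalized so that the median is 500.0 in each of the 44 libraries, with totals from 31777102 to 31798964, so sequencing depth cannot be read from them. Scores are not scaled to length, and levels are compared between samples for one type, never between types. The 239 types together took from 1.14% to 1.78% of a library's score. Mean scores of single types ran from 22.4 to 40119. The labels held against marker genes: all 8 pluripotency markers were higher on day 12 than on day 0 with control shRNA, and all 8 fibroblast markers lower. Ctcf was lower with its shRNA in all 11 populations, with a log2 effect of -0.52 on day 0 (adjusted p = 0.000692) and of -1.81 on day 12 (adjusted p = 8.52e-15). Among the other lists, epithelial markers were higher on day 12 than on day 0 for 6 of 6 measured, germ cell markers for 4 of 4 and trophoblast markers for 3 of 4. Macrophage markers were higher for 1 of 6 measured and lower for 4, with summed scores from 708 to 7457 over the 44 libraries. Endoderm markers had 2 of 5 measured, of which 1 was lower.

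Replicate 1 of the day 6 SSEA1+ cells with control shRNA stood apart. Its score for Gm42418, a predicted transcript that overlaps ribosomal RNA sequence, was 290619, against 4950 to 31810 (median 9090) in the other 43 libraries. AY036118, another ribosomal RNA-derived transcript, stood at 181252 there against at most 17423 elsewhere. This library was the highest of all 44 for 38 of the 239 types, while the other libraries led for 0 to 24 types (median 2). Among them were MERVL-int, at 29050 against 5570 in replicate 2 of the same group, and MT2_Mm, at 2054 against 687. RLTR1B-int (2348 and 2128) and MMVL30-int (930 and 894) were close between the replicates. The counts for day 6 SSEA1+ cells and the MERVL results are given with and without it.

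The first comparison asked which elements changed between day 0 and the GFP+ cells of day 12 with control shRNA. A larger share of MaLR than of ERV1 or ERVL types was called higher, the largest called rises were those of ERV1 elements, and VL30 was among the types that fell. At an adjusted p (Benjamini-Hochberg) below 0.05, 107 of the 239 types were higher and 41 lower. Over all 14270 rows 79.1% passed, 40.3% higher and 38.8% lower, so being called was no more frequent here than in the table at large (61.9% of the types), while the balance leaned upward. The median log2 change was 0.37 for the 239 types, 0.03 for all rows and -0.01 for genes. All 819 repeat types leaned the same way, with 373 higher, 136 lower and a median of 0.37, so the lean is not particular to these families. It did not hold for each repeat class: of 167 DNA transposon types 23 were higher and 50 lower (median -0.12). Repeat rows took 9.59% and 8.97% of the score on day 0 and 17.3% and 17.0% on day 12. In bulk RNA, fewer cells that make a transcript and less transcript per cell cannot be told apart.

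MaLR led the upward lean, with 56 of 92 types higher, 10 lower and a median log2 change of 0.60. Its LTRs were higher for 37 of 51 and lower for 3, and its internal parts higher for 19 of 41 and lower for 7. ERV1 had 33 of 88 higher and 15 lower (median 0.14), and ERVL 18 of 59 higher and 16 lower (median 0.16). ERVL thus had the largest share of types called lower among these families, though a smaller share than the 38.8% of all rows. Of all rows 40.3% were called higher, a larger share than in ERV1 or ERVL and a smaller one than in MaLR. In the family sums, MaLR stood at 191556 and 170214 on day 0 and at 286244 and 289295 on day 12, ERVL at 87677 and 80868 against 116220 and 121821, and ERV1 at 116986 and 112250 against 133654 and 141870. Of the 17 types whose names carry the mouse tag Mm, 11 were higher and 3 lower (median 0.84). For comparison, 137 of 211 ERVK types, the family that holds the intracisternal A-particles, were higher and 15 lower (median 0.70).

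**Figure D1:**
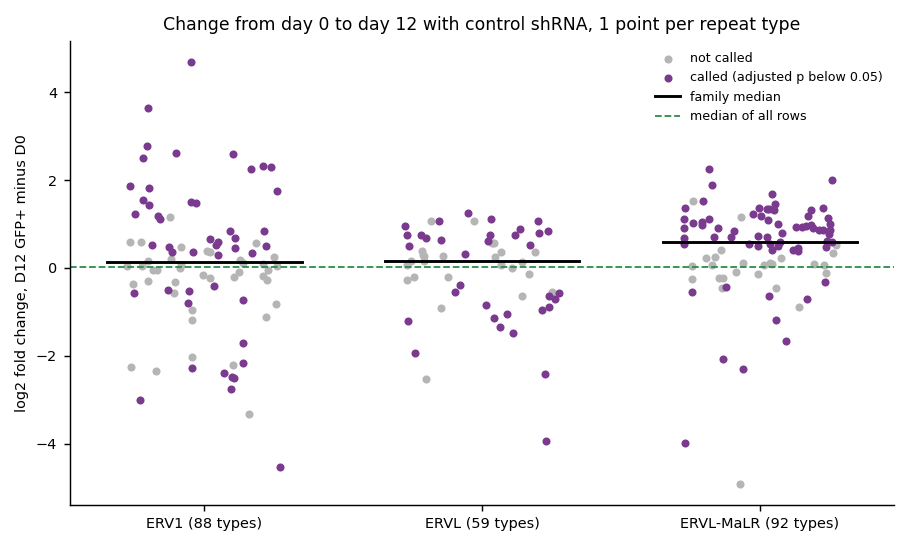
Log2 fold change from day 0 to day 12 GFP+ cells with control shRNA (vertical axis) for each of the 239 repeat types, by family (horizontal axis); purple points passed an adjusted p of 0.05, black bars are family medians and the dashed line is the median of all 14270 rows. The MaLR median (0.60) lies farthest above the line, while ERV1 spreads widest, up to RLTR1B-int at 4.69.

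RLTR1B-int, the internal part of a gammaretrovirus-like ERV1 element, rose the most. It scored 581 and 480 on day 0 and 13209 and 14154 on day 12, a log2 change of 4.69 (SE 0.10, adjusted p = 8.87e-24). The steps between were gradual in SSEA1+ cells: 904 and 856 on day 3, 2348 and 2128 on day 6, and 5076 and 5106 on day 9. Every SSEA1+ pair lay above the pair of the stage before it. Its LTR, RLTR1B, went from 176 and 162 to 942 and 972, a smaller log2 change of 2.50 (SE 0.14, adjusted p = 2.87e-15).

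MMERGLN-int, internal part of the murine GLN elements, was already well detected in fibroblasts, at 4938 and 4539. It reached 30822 and 34022 on day 12, a log2 change of 2.77 (SE 0.12, adjusted p = 4.59e-17). The SSEA1+ scores were 7386 and 8258, 11100 and 10840, then 12494 and 13458 on days 3, 6 and 9, so the largest step came last. MMERGLN_LTR rose from 280 and 178 to 873 and 766 (log2 1.87, SE 0.21, adjusted p = 5.17e-09). LTRIS2, an ERV1 LTR, rose from 380 and 270 to 1990 and 1914 (log2 2.60, SE 0.14, adjusted p = 1.3e-15).

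Other ERV1 types rose from very low scores. RLTR30E_MM went from 24 and 11 to 238 and 195 (log2 3.64, SE 0.32), and MER89, an old ERV1 type, from 18 and 30 to 150 and 146 (log2 2.62, SE 0.39). MuRRS4-int, of the murine retrovirus-related sequences, rose from 308 and 302 to 740 and 700 (log2 1.24), whereas MuRRS-int had 231 and 228 against 186 and 224 (log2 -0.17, adjusted p = 0.495). MURVY-LTR, from an element multiplied on the Y chromosome, rose from 104 and 72 to 180 and 196 (log2 1.11). The libraries of the called types did not overlap between the days, which was a condition for naming a type by its values, as MER89 was. These calls were kept when any 1 library was left out.

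VL30 elements, gammaretrovirus-like sequences long known as inducible in rodent fibroblasts, took the opposite course. MMVL30-int, their internal part, scored 12653 and 12247 on day 0 and 2318 and 2159 on day 12, a log2 change of -2.48 (SE 0.11, adjusted p = 3.68e-17). Their LTR, RLTR6_Mm, fell from 1378 and 1190 to 400 and 381 (log2 -1.71, SE 0.14). RLTR6C_Mm, another LTR named as RLTR6, fell from 291 and 256 to 60 and 44 (log2 -2.39). RLTR6-int did not follow them, with 1586 and 1605 on day 0 and 1852 and 1752 on day 12 (log2 0.17, adjusted p = 0.069). In the murine leukaemia virus-like pair, the LTR RLTR4_Mm fell from 1488 and 1205 to 824 and 779 (log2 -0.74), while its internal part RLTR4_MM-int had 5446 and 4664 against 5022 and 5600 (log2 0.07, adjusted p = 0.641).

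Several older types fell with VL30. MER50B dropped from 11105 and 12180 to 1282 and 1652 (log2 -3.00, SE 0.20, adjusted p = 1.52e-13), and MER110A from 2554 and 2357 to 428 and 306 (log2 -2.76). MTEb-int, an internal MaLR part, went from 5224 and 4286 to 848 and 1073 (log2 -2.31), MER92B from 1034 and 832 to 200 and 213 (log2 -2.16), and MLT1H from 977 and 912 to 310 and 282 (log2 -1.67). LTR40A1 (118 and 98 to 9 and 4) and LTR9 (64 and 58 to 14 and 10) were low throughout. 2 further types with large fitted falls were less firm: MER92A lost its call without day 0 replicate 1 (adjusted p = 0.128) or 2 (0.0593) or day 12 replicate 2 (0.35), and MLT1E2-int without day 12 replicate 1 (0.118) or with only these groups fitted (0.0744). Fibroblast markers moved the same way as these types, with a summed score of 102317 and 95096 on day 0 and of 13446 and 14283 on day 12, and their part in the fall was not tested.

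Among MaLR, all 10 ORR1A types rose, by 0.77 to 2.25 on the log2 scale (a group singled out after its values were seen). ORR1A0-int rose from 659 and 581 to 3116 and 2798 (log2 2.25, SE 0.11, adjusted p = 1.28e-16), and its LTR ORR1A0 from 270 and 278 to 1133 and 1060 (log2 2.00). ORR1A1-int rose from 1452 and 1350 to 3918 and 4188 (log2 1.53), and ORR1A2-int from 2329 and 2218 to 5963 and 5800 (log2 1.37, with 1.18 for the LTR ORR1A2). The internal parts rose by less from A0 to A2. Of the MT types, MTA_Mm rose from 2710 and 2396 to 4964 and 4698 (log2 0.92), MTB by 0.86, MTC by 1.00 and MTD by 1.00. MTE-int did not pass, with 3560 and 2610 against 3192 and 3162 (log2 0.06, adjusted p = 0.60).

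MERVL was not a leading riser. MERVL-int scored 8710 and 6417 on day 0 and 14907 and 16643 on day 12, a log2 change of 1.07 (SE 0.37, adjusted p = 0.00941). The call was lost without day 0 replicate 2 (adjusted p = 0.0888) or day 12 replicate 2 (0.0518), and its p fell to 7.02e-07 without the day 6 library that stood apart, which widens the spread shared by all groups. MT2_Mm rose from 948 and 700 to 1774 and 1773 (log2 1.12, SE 0.27, adjusted p = 0.000441). In SSEA1+ cells MERVL-int scored 5758 and 6786 on day 3 and 7420 and 8478 on day 9, and MT2_Mm 840 and 804, then 1056 and 929, all below the day 12 libraries. Of 24 genes known to accompany MERVL in the early embryo only Dppa2 and Dppa4 have a row. Both rose, as did all 8 pluripotency markers, and these 2 genes cannot stand for the rest of the list.

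The related ERVL types rose by less. MERVL_2A-int had 28326 and 28374 on day 0 and 41868 and 44254 on day 12 (log2 0.60), MT2A 4120 and 3886 against 6150 and 6272 (log2 0.63), MT2B2 1091 and 990 against 1844 and 1789 (log2 0.80), and MT2C_Mm 424 and 398 against 759 and 758 (log2 0.88). MT2B rose by 0.52. The call of MT2B1 (log2 0.31) was lost without day 0 replicate 2 (adjusted p = 0.0966) or day 12 replicate 2 (0.0742).

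**Figure D2:**
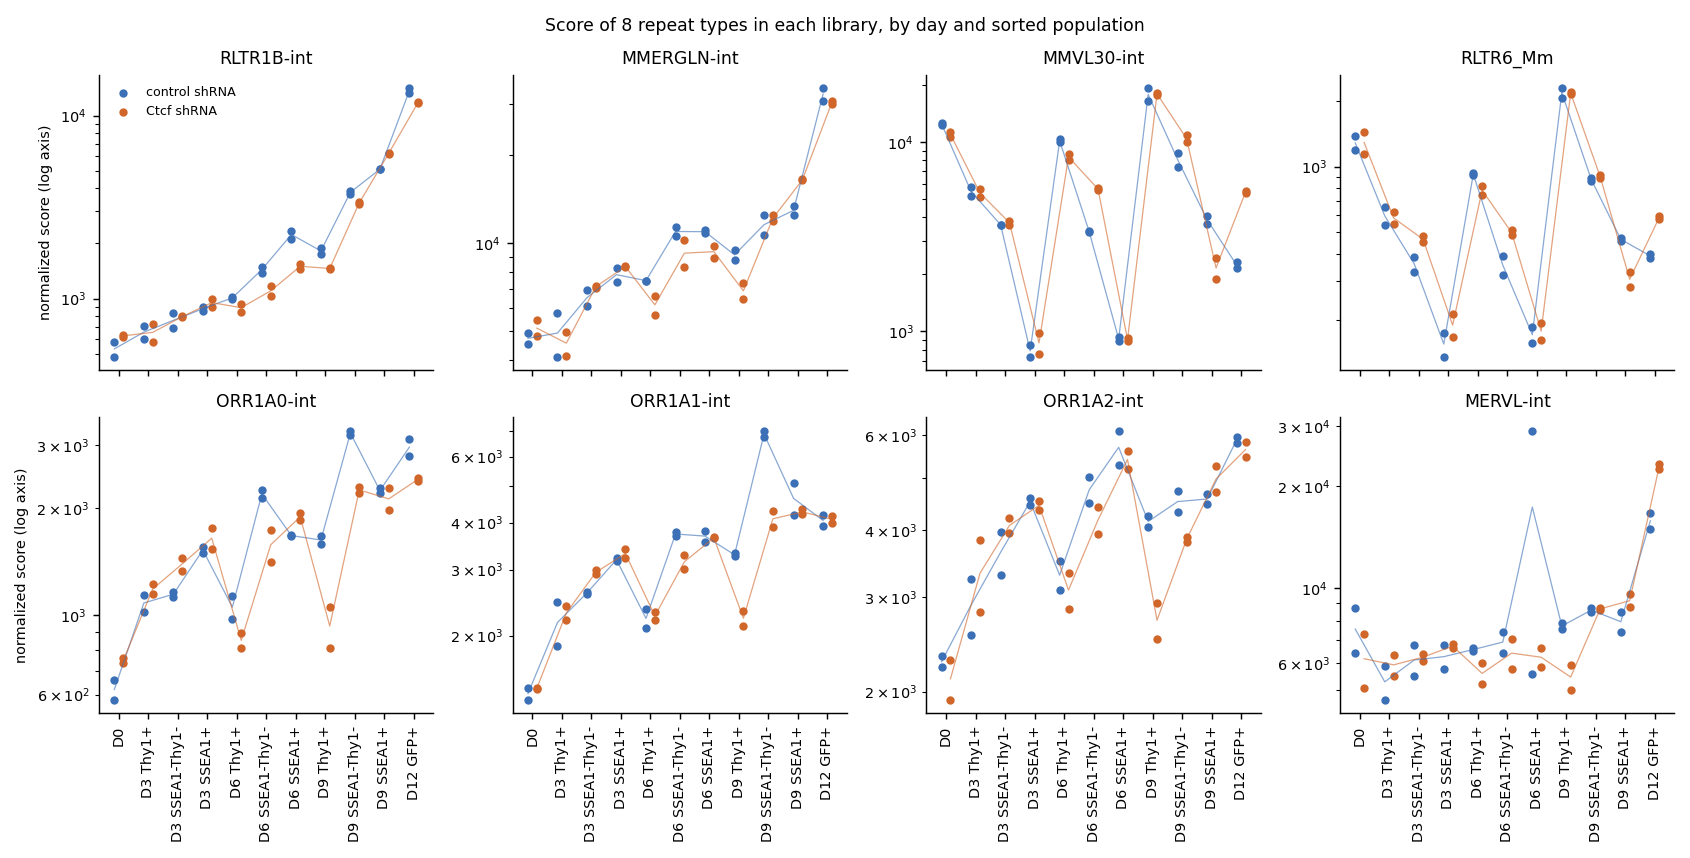
Normalized score (log axis) of 8 repeat types in each library, by day and sorted population (horizontal axis), with control shRNA in blue and Ctcf shRNA in orange; points are libraries and lines join group means. RLTR1B-int and MMERGLN-int rise toward D12 GFP+, MMVL30-int and RLTR6_Mm swing between high Thy1+ and low SSEA1+ cells, and 1 library lifts MERVL-int in D6 SSEA1+ cells.

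The next comparison followed SSEA1+ cells, the population on its way to pluripotency, against day 0. Types changed early: 111 were higher and 31 lower on day 3, where 71.4% of all rows passed (40.2% higher and 31.2% lower). On day 6 the counts were 113 higher and 29 lower (75.6% of all rows, with 42.2% higher and 33.4% lower). SSEA1+ cells of day 9 had 100 higher and 36 lower (71.9%, with 37.3% and 34.6%). Median log2 changes were 0.40, 0.41 and 0.27. Without the day 6 library that stood apart, day 6 had 84 higher and 35 lower. On day 3, 41 of 72 internal parts were higher and 8 lower (median 0.61), and 70 of 167 LTRs higher and 23 lower, and the difference between them was not tested. These comparisons share the day 0 libraries.

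Within the families, ERV1 had 37, 34 and 26 types higher on days 3, 6 and 9, and 15 lower at each day. ERVL had 23, 21 and 19 higher and 7, 9 and 12 lower. MaLR had 51, 58 and 55 higher and 9, 5 and 9 lower. Without the library that stood apart, day 6 had 25 ERV1 types higher and 16 lower, 16 ERVL types higher and 12 lower, and 43 MaLR types higher and 7 lower. ORR1A0-int rose early, with 1552 and 1494 in SSEA1+ cells of day 3, 1679 and 1664 in those of day 6, and 2265 and 2204 in those of day 9. RLTR24, an ERV1 LTR, stood higher in SSEA1+ cells of days 3 and 6 than on day 0 or day 12. It scored 4877 and 4690 on day 3 and 6386 and 5034 on day 6, where 6386 is from the library that stood apart. Day 0 had 2246 and 2574, and day 12 had 4035 and 3562. MTB-int was also higher in day 6 SSEA1+ cells, at 3440 and 3410, than on day 0 (1812 and 1681) or day 12 (2439 and 2888).

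In SSEA1+ cells of days 3 and 6 VL30 lay below its day 12 level. MMVL30-int scored 734 and 844 on day 3 and 930 and 894 on day 6 in SSEA1+ cells, a log2 change from day 0 of -3.98 and -3.77, and was back at 3668 and 4085 on day 9. The fibroblast marker sum in these cells was 7595 and 8023, 3149 and 3469, then 34967 and 35536, so it was lower on day 6 than on day 3 where MMVL30-int was not, and both were highest on day 9. The part of remaining fibroblasts in the VL30 scores was not tested. MTEb-int ran alongside, with 577 and 597, 576 and 540, then 1332 and 1508. Some of the largest fitted rises on day 3 began from scores near 0 and were unsteady: MLT1G-int, at 1 and 1 on day 0 and 213 and 72 in day 3 SSEA1+ cells (log2 5.97), lost its call without 1 of these SSEA1+ libraries (adjusted p = 0.0849 without replicate 1).

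SSEA1+ cells were then set against Thy1+ cells of the same day, the cells that keep the fibroblast surface marker. On day 3, 116 types were higher in SSEA1+ cells and 19 lower, where 63.5% of all rows passed (36.1% higher and 27.4% lower). On day 6, 82 were higher and 22 lower (74% of all rows, with 41.8% higher and 32.2% lower). On day 9, 22 were higher and 37 lower (65.9%, with 37% and 29%). The median log2 difference was 0.44, 0.30 and -0.05, so the upward lean of the earlier days was gone on day 9, when the median of all rows was 0.11. The day 3 count of 135 called types was 75 without Thy1+ replicate 2. Without the day 6 SSEA1+ library that stood apart, day 6 had 50 higher and 28 lower. In MaLR the counts were 55 higher and 6 lower on day 3, 29 and 8 on day 6 (16 and 12 without that library), and 8 and 16 on day 9. The differences between days were not tested.

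RLTR48C, an ERV1 LTR, was higher in SSEA1+ than in Thy1+ cells on each day, and double-negative cells were not compared here. It scored 96 and 106 in SSEA1+ against 20 and 15 in Thy1+ cells on day 3, 264 and 288 against 43 and 48 on day 6, and 458 and 546 against 70 and 78 on day 9. The log2 differences were 2.47, 2.58 and 2.74 (adjusted p = 2.88e-08, 6.95e-09 and 4.1e-09). On day 12 it stood at 340 and 226, below the day 9 SSEA1+ cells. RLTR1B-int was higher in SSEA1+ cells by a growing margin: 904 and 856 against 710 and 600, 2348 and 2128 against 1019 and 998, and 5076 and 5106 against 1886 and 1754.

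VL30 took the opposite side of this contrast. In Thy1+ cells MMVL30-int had 5788 and 5168 (day 3), 9962 and 10324 (day 6), then 16384 and 19280 (day 9). The log2 differences of SSEA1+ cells were -2.80, -3.47 and -2.20. The log2 differences of RLTR6_Mm were -1.94, -2.43 and -2.22, and those of MER92B -2.97, -1.97 and -1.86. RLTR4_MM-int was lower in SSEA1+ cells as well, with 3380 and 4119 against 6770 and 6251 on day 3 and 3371 and 3536 against 7878 and 8626 on day 6. The fibroblast marker sum was 95633 and 88904, 196578 and 187139, then 285772 and 299876 in Thy1+ cells, and each day had all 8 markers lower in SSEA1+ than in Thy1+ cells. Their part in the difference was not tested.

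Each type had 1 population with its highest mean among the 11 with control shRNA. It was D12 GFP+ for 64 types, D6 SSEA1+ for 49, D3 SSEA1+ for 41, D9 Thy1+ for 38 and D0 for 25. Without the library that stood apart, D6 SSEA1+ led for 30 types and D12 GFP+ for 70. Day 0 was the lowest population for 74 types, 42 of them MaLR, and D3 Thy1+ for 54. Over these 11 means, as a description, the types most like MMVL30-int were RLTR6_Mm (Pearson r = 0.978), MTEb-int (0.951), RLTR6C_Mm (0.931), MER92B (0.910) and MTEb (0.852). Those most like MERVL-int were MT2_Mm (0.953), MMERGLN_LTR (0.845), MURVY-LTR (0.842), RLTR30 (0.827) and MLT1G3 (0.826), but this order rested on the library that stood apart: without it MT2_Mm was still first (0.967), MMERGLN_LTR was 9th (0.832) and the other 3 fell to rank 34 or lower, with r from 0.692 to 0.732.

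The last comparisons asked what the Ctcf shRNA changed. The share of the 239 types that passed was below that of all rows in each of the 11. The share of all 819 repeat types was below it too (11.4% on day 12). The median absolute log2 effect of the 239 types exceeded that of all rows on day 0 (0.18 against 0.16). The same held in day 3 double-negative and day 9 Thy1+ cells. It was smaller elsewhere (0.20 against 0.35 on day 12). At mean scores of 200 or more, day 0 control replicates lay farther apart for types than genes (median log2 gap 0.21 against 0.09). Those of day 12 did not (0.10 for both). On day 0, 6 types passed (6.19% of all rows). On day 3 the counts were 3 in Thy1+ (3.66%), 1 in SSEA1+ (6.27%) and 1 in double-negative cells (4.55%). On day 6 they were 7 in Thy1+ (13.4%), 10 in SSEA1+ (20.5%; 6 without the library that stood apart) and 27 in double-negative cells (39.5%). Day 9 had 15 in Thy1+ (18.4%), 3 in SSEA1+ (12.9%) and 16 in double-negative cells (26.1%). On day 12, 28 types passed, 13 higher and 15 lower. That is 11.7% of the types, against 46.5% of all rows (23.3% higher and 23.1% lower).

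These counts depend on what is fitted with the repeats. When the 819 repeat types were fitted and adjusted alone, 10 types passed on day 12, 13 in day 6 double-negative cells, 4 in day 9 Thy1+ cells and 5 in day 9 double-negative cells. With only the compared groups fitted, the day 12 count was 53. The shares of all rows under these alternative fits are not given here, so these counts are not set against them. Single libraries moved the counts too: that of day 12 was 13 without Ctcf shRNA replicate 1, and 18 without control replicate 2. The day 6 double-negative count was 17 without Ctcf shRNA replicate 1, and the day 0 count ran from 1 (without control replicate 1) to 26 (without Ctcf shRNA replicate 1).

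**Figure D3:**
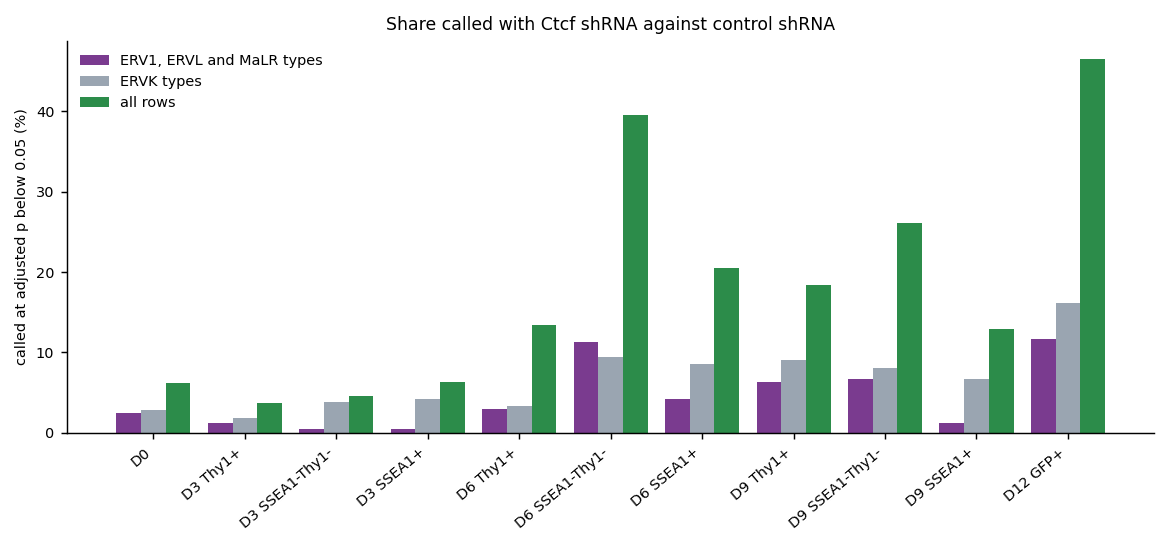
Share of rows called at an adjusted p below 0.05 with Ctcf shRNA against control shRNA (vertical axis, %), in each of the 11 populations, for the 239 ERV1, ERVL and MaLR types, the 211 ERVK types and all 14270 rows. The purple bars stay below the green ones in all 11 populations, with 11.7% against 46.5% at D12 GFP+.

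MMVL30-int had the smallest p of the 239 types in the test for differing effects, and its effect differed in sign between populations. On day 12 MMVL30-int scored 2318 and 2159 with control shRNA and 5380 and 5502 with Ctcf shRNA, a log2 effect of 1.28 (SE 0.11, adjusted p = 4.13e-10). In day 6 double-negative cells it rose from 3352 and 3376 to 5600 and 5692 (log2 0.75, adjusted p = 5.65e-06). In day 9 SSEA1+ cells it fell from 3668 and 4085 to 1882 and 2440 (log2 -0.85, adjusted p = 3.3e-06, and 0.104 when only these groups were fitted). On day 0 the effect was -0.18 (adjusted p = 0.341). The effect of 0.37 in day 9 double-negative cells was lost without Ctcf shRNA replicate 2 (adjusted p = 0.125) or control replicate 1 (0.20).

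The types most like it over the control populations followed in part, and in day 9 SSEA1+ cells only MMVL30-int and RLTR6_Mm were called lower. RLTR6_Mm rose on day 12 from 400 and 381 to 576 and 594 (log2 0.58, adjusted p = 0.00112), and fell in day 9 SSEA1+ cells by 0.61, a call lost without Ctcf shRNA replicate 1 (adjusted p = 0.071) or with only these groups fitted (0.109). MTEb-int rose on day 12 from 848 and 1073 to 1794 and 1958 (log2 0.97, adjusted p = 0.000504) and in day 6 double-negative cells (log2 0.91). MER92B rose in the latter from 180 and 117 to 374 and 310 (log2 1.22, adjusted p = 4.09e-05), and RLTR6C_Mm from 42 and 38 to 110 and 87 (log2 1.27). On day 12 the effects on MER92B (0.25, adjusted p = 0.334) and RLTR6C_Mm (0.01, adjusted p = 0.989) did not pass. MER50B, which is not among those most like MMVL30-int, rose on day 12 from 1282 and 1652 to 2585 and 2587 (log2 0.83, adjusted p = 0.0012).

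Fibroblast markers moved in the same direction as MMVL30-int in day 12 GFP+, day 6 double-negative and day 9 SSEA1+ cells. Their sum was 13446 and 14283 with control shRNA and 39534 and 39175 with Ctcf shRNA on day 12, with all 8 markers higher. In day 6 double-negative cells it was 28463 and 27766 against 61376 and 60769, again with all 8 higher. In day 9 SSEA1+ cells it was 34967 and 35536 against 12676 and 14331, with all 8 lower. Pluripotency markers summed to 40927 and 40721 against 23035 and 22803 on day 12. In day 9 double-negative cells, where MMVL30-int differed least of the called populations, the fibroblast sums were 90863 and 91518 against 89716 and 94166. In day 6 Thy1+ cells the sums were 196578 and 187139 against 130747 and 130012, with 6 of 8 markers lower. MMVL30-int was not called there. The part of these shifts in the repeat scores was not tested.

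Some ORR1A types were lower with Ctcf shRNA on day 9, in Thy1+ and double-negative cells. Of the 10 ORR1A types, a group singled out after its values were seen, 5 were called lower in Thy1+ cells and 4 in double-negative cells. Of all 14270 rows, 1643 were called lower in Thy1+ cells and 1786 in double-negative cells. In SSEA1+ cells the log2 effects on the ORR1A types ran from -0.11 to 0.26. In day 9 Thy1+ cells all 15 called types were lower (11.5% of all rows were called lower and 6.87% higher) and limma called 0 higher, with 3 higher and 46 lower at an unadjusted p below 0.05. The count of 15 was 6 without Ctcf shRNA replicate 1, 23 without Ctcf shRNA replicate 2, and 7 without either control library. The median effect on the 239 types was -0.16 there, against 0.01 for all rows. All 819 repeat types leaned the same way, with 6 higher, 42 lower and a median of -0.16. ERVK types had 2 higher, 17 lower and a median of -0.17, so this lean is not particular to these families. ORR1A0-int led, with 1668 and 1582 against 1058 and 809 (log2 -0.81, SE 0.11, adjusted p = 2.9e-06, and 0.0866 when only these groups were fitted). ORR1A2-int followed, with 4047 and 4244 against 2504 and 2926 (log2 -0.61, adjusted p = 0.000925, and 0.0706 when only these groups were fitted). Epithelial markers fell in the same Thy1+ cells for 6 of 6, from a sum of 4422 and 4040 to 1450 and 1421, and pluripotency markers for 4 of 8, from 1557 and 1317 to 622 and 487. Silencing genes were lower for 11 of 41 there, and the part of these shifts in the repeat scores was not tested.

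In day 9 double-negative cells ORR1A1-int fell from 7028 and 6745 to 4302 and 3888 (log2 -0.75, SE 0.09, adjusted p = 2.26e-06), and ORR1A0-int from 3284 and 3188 to 2194 and 2292 (log2 -0.53). These double-negative cells with control shRNA were the population with the highest ORR1A1-int and ORR1A0-int means of the 11. The log2 effect on ORR1A1-int was 0.01 on day 12 (adjusted p = 0.935). That on ORR1A0-int on day 12 was -0.30 (adjusted p = 0.0246), a call lost without either Ctcf shRNA library (0.0709 and 0.103) or control replicate 1 (0.203).

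RLTR1B-int, the type that rose most over the course, was lower with Ctcf shRNA in day 6 SSEA1+ cells, at 1552 and 1448 against 2348 and 2128 (log2 -0.58, adjusted p = 0.000174, and 0.10 when only these groups were fitted). On day 12 it stood at 11782 and 11889 against 13209 and 14154 (log2 -0.21, adjusted p = 0.0943). MTB-int was lower in day 6 double-negative cells, at 1762 and 1769 against 2560 and 2431 (log2 -0.50, adjusted p = 7.28e-06). Lower on day 12 were MLT1J2 at 218 and 200 against 404 and 420 (log2 -0.98, adjusted p = 0.000194), and MER31B at 301 and 291 against 624 and 506 (log2 -0.92, adjusted p = 0.000175).

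**Figure D4:**
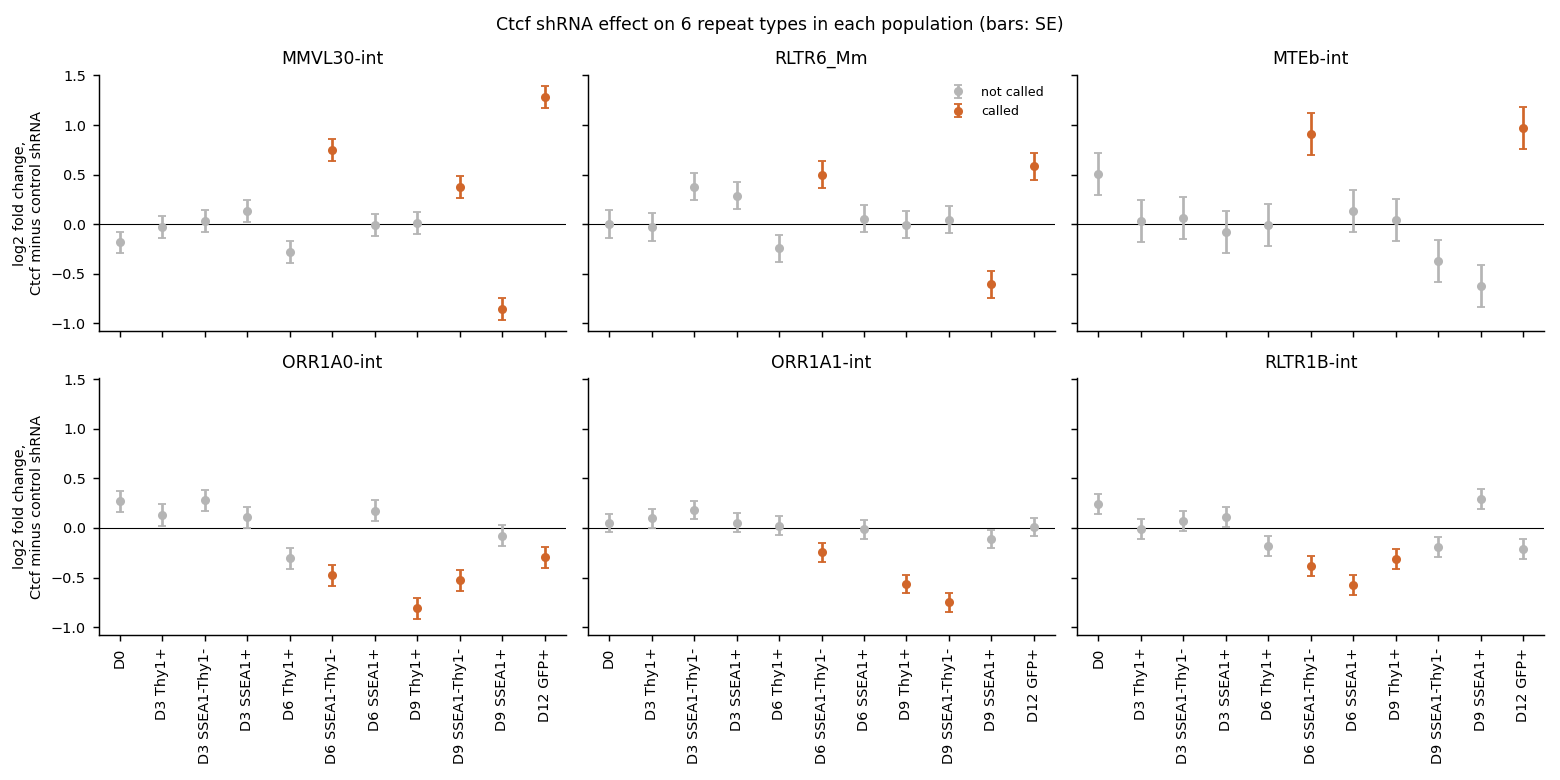
Log2 fold change with Ctcf shRNA against control shRNA (vertical axis) for 6 repeat types in each population (horizontal axis); points are fitted effects, bars are their standard errors and orange marks an adjusted p below 0.05. MMVL30-int reaches 1.28 at D12 GFP+ and -0.85 in D9 SSEA1+ cells, while ORR1A0-int is lowest in D9 Thy1+ cells at -0.81.

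MERVL did not pass on day 12 in the fit of all libraries, although its libraries did not overlap: MERVL-int scored 14907 and 16643 with control shRNA and 22446 and 23170 with Ctcf shRNA (log2 0.53, adjusted p = 0.236). Without the day 6 library that stood apart, the same log2 effect had an adjusted p of 0.00669. Gm42418 was higher as well on day 12 with Ctcf shRNA, at 30600 and 31810 against 12599 and 13808, and its part was not tested. MT2_Mm was at 1928 and 1864 against 1774 and 1773 (log2 0.10, adjusted p = 0.79). The effect on MERVL-int in day 6 SSEA1+ cells, -1.03 (adjusted p = 0.046), rested on the library that stood apart and was 0.16 (adjusted p = 0.652) without it.

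**Figure D5:**
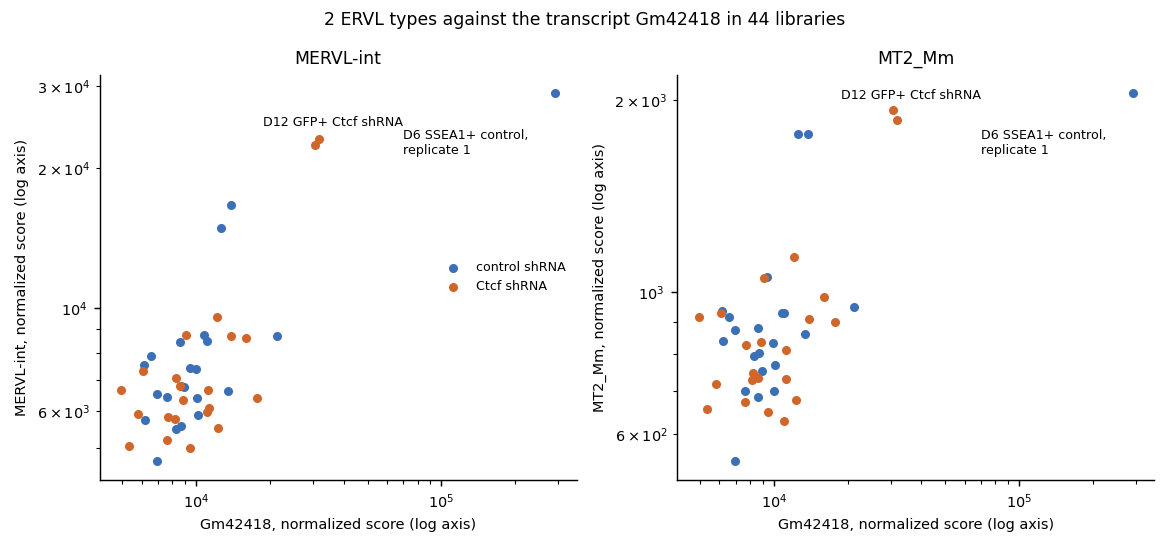
Normalized scores of MERVL-int (left) and its LTR MT2_Mm (right) against the ribosomal RNA-overlapping transcript Gm42418 in the 44 libraries, both axes logarithmic; each point is a library, blue with control shRNA and orange with Ctcf shRNA. The D6 SSEA1+ control replicate 1 lies far to the right at 290619, and the D12 GFP+ Ctcf shRNA libraries, at 30600 and 31810, exceed the D12 control libraries in MERVL-int.

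Averaged over the 11 populations, the Ctcf shRNA effect was called for 38 of the 239 types, 13 higher and 25 lower, where 49.5% of all rows passed (24.9% higher and 24.6% lower). MaLR had 3 higher and 15 lower, ERV1 8 and 8, and ERVL 2 and 2. With the repeat types fitted alone 20 passed. RLTR4_MM-int had a mean effect of 0.26 (SE 0.04, adjusted p = 1.48e-05). Its day 12 scores were 5022 and 5600 with control shRNA and 7606 and 7796 with Ctcf shRNA (log2 0.54), while its effect on day 0 was -0.09. Further mean effects with the same sign in at least 10 of the 11 populations were 0.27 for RLTR6C_Mm (adjusted p = 0.0086, and 0.0604 with the repeat types fitted alone), 0.16 for MLT2B4, an ERVL LTR, and -0.10 for MTA_Mm-int (adjusted p = 0.000286).

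Whether the effect differed between populations was tested directly. It differed among the 11 populations for 35 of the 239 types (14.6%), against 52.7% of all rows, and for 10 with the repeat types fitted alone. Between day 12 and day 0 the effect differed for 24 types, 6 higher and 18 lower on day 12, where 37% of all rows passed (20% higher and 16.9% lower). That count was 3 with the repeat types fitted alone, 12 without day 12 Ctcf shRNA replicate 1 and 14 without day 12 control replicate 1. MMVL30-int had the largest upward difference of those named, 1.47 (SE 0.16, adjusted p = 4.29e-08). MLT1H followed with 0.75, and RLTR30D_RN (-1.06), MLT1J2 (-1.07), ORR1A0-int (-0.57) and ORR1A0 (-0.51) went down.

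Genes known to silence endogenous retroviruses were read alongside, from a list of 42 of which 41 have a row. With control shRNA 39 were higher on day 12 than on day 0 and 1, Pphln1, was lower, with a median log2 change of 1.40. Of all rows 40.3% were higher and 38.8% lower. In the same comparison 107 of the 239 repeat types were higher and 41 lower, and the part of these genes in the repeat scores was not tested. Trim28, the corepressor that KRAB zinc finger proteins recruit, rose from 3938 and 3619 to 20576 and 22088 (log2 2.50, adjusted p = 3.24e-18). Setdb1 rose from 816 and 862 to 2216 and 2272 (log2 1.42), and Uhrf1, which keeps DNA methylation through replication, from 954 and 1073 to 5944 and 5921 (log2 2.55). In SSEA1+ against Thy1+ cells 26, 34 and 37 of the 41 were higher on days 3, 6 and 9, and 1, 2 and 1 lower. Of all rows 36.1%, 41.8% and 37% were higher on these days, and 27.4%, 32.2% and 29% lower.

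With Ctcf shRNA 23 of the 41 silencing genes were lower on day 12 and 1 was higher (median -0.38). In the same libraries 13 of the 239 repeat types were higher and 15 lower, and 23.3% of all rows were higher and 23.1% lower. Trim28 was at 15206 and 15202 there (log2 -0.49, adjusted p = 0.000258), and Setdb1 at 1607 and 1751 (log2 -0.42, adjusted p = 5.13e-05). In day 6 double-negative cells 25 were lower (median -0.34), where 2923 of all 14270 rows were called lower. Over the 11 populations the mean effect was lower for 26 and higher for 3, against 24.6% and 24.9% of all rows. It was -0.37 for Setdb1 (adjusted p = 2.93e-13), -0.33 for Uhrf1, and 0.18 for Zfp809 (adjusted p = 6.2e-05), the zinc finger protein that targets murine leukaemia virus-like elements. The part of these genes in the repeat scores was not tested.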

How the data were processed

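RNA was measured by RNA-seq. The tools named, without versions or roles, in the submitters' processing notes are RSEM, FastQC and Trim Galore, and the build is mm10 (GRCm38). The table of 44 sorted-cell libraries holds a score: whole numbers that the authors deposited after a normalization not given in the sources used here, read from the values as close to a shared distribution. A linear model was fitted with limma 3.58.1 (R 4.3.3) to the log2 of score plus 1, over all 14270 rows and 44 libraries, with 1 coefficient per group, a mean-variance trend, 22 residual degrees of freedom and Benjamini-Hochberg adjustment over all rows, called below 0.05. Every row met the filter, 2 or more libraries with a score of 10 or more. The fit was tested on simulated data.

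Named types were a panel of 37 names (35 with a row) and, among called types with a group mean of at least 50 and no overlap of libraries, the 6 largest changes in each direction with control shRNA, 3 for each Ctcf shRNA effect, 8 for the mean effect (the same sign in at least 10 of 11 populations), and the 6 smallest p-values for differing effects. Gene lists were fibroblast, pluripotency, epithelial, macrophage, trophoblast, endoderm and germ cell markers, silencing genes and genes that accompany MERVL. Members and lists were chosen with earlier results of these data known. Alternatives were the pseudocount, the filter, quantile normalization, repeat rows alone, only the groups compared, the replicate number as a block and leaving out each library. Leaving the day 6 library that stood apart out of comparisons that do not use it was chosen after seeing the data. Likeness to MERVL-int and MMVL30-int named the 5 types with the highest Pearson r over the 11 control populations. The other samples of the series were not analysed here.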

Additional observations from a re-analysis of the deposited data

Results flagged for a closer look

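The Ctcf shRNA effect differed between populations for these types, by limma's test of the difference itself. Among the 11 populations, the adjusted p was 3.98e-09 for MMVL30-int, 3.2e-06 for ORR1A0-int, 1.51e-05 for ORR1A1-int, 0.00018 for RLTR1B-int, 0.000232 for MTB-int and 0.000336 for LTR9. LTR9 had low scores, with 22 and 30 against 55 and 53 in day 6 double-negative cells.

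Between day 12 and day 0, the effect differed with an adjusted p of 4.29e-08 for MMVL30-int, 0.000837 for RLTR30D_RN, 0.00136 for MLT1H, 0.00331 for MLT1J2, 0.00439 for ORR1A0-int and 0.0127 for ORR1A0. With the repeat types fitted alone, MLT1J2 (adjusted p = 0.0511), ORR1A0-int (0.0651) and ORR1A0 (0.154) no longer passed, and ORR1A0 was at 0.0521 without day 12 control replicate 1.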

How the results depend on the processing

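Counts of called types are given in the order day 0, then Thy1+, SSEA1+ and double-negative cells of days 3, 6 and 9, then day 12. The shares of all rows under the same settings are not given here. With the repeat types fitted alone, the Ctcf shRNA effect was called by limma for 0, 0, 0, 0, 0, 2, 13, 4, 2, 5 and 10 types, and at an unadjusted p below 0.05 the first 5 of these had 30, 10, 3, 9 and 22. The mean effect had 20, the difference between day 12 and day 0 had 3, the difference among populations 10, and day 9 SSEA1+ against Thy1+ cells 35. With only the groups compared the Ctcf shRNA counts were 0 (11 unadjusted), 0 (10), 0 (20), 0 (25), 2, 0 (18) for day 6 SSEA1+ cells, 1 in day 9 Thy1+ and 1 in day 9 SSEA1+ cells, 53 at day 12 and 13 for the difference. Quantile normalization gave 0 (5 unadjusted) in day 3 SSEA1+ cells, and a pseudocount of 8 gave 0 (13) in day 3 double-negative cells. The filter alternatives could not change a count, since all 14270 rows also pass a score of 50 in 2 libraries and the same rows were fitted.

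Same-numbered replicates did not deviate together (correlations from -0.0739 to 0.0718 over 18 pairs, 0 of them over 0.1). A replicate block gave 2 types in day 3 double-negative and 7 in day 9 SSEA1+ cells, and moved no other count by more than 1.5 times.

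Leaving out 1 library at a time gave 134 to 150 types for day 12 against day 0, 102 to 142, 115 to 143 and 114 to 137 for SSEA1+ cells of days 3, 6 and 9 against day 0, and 75 to 140, 78 to 109 and 40 to 60 for SSEA1+ against Thy1+ cells. For the Ctcf shRNA effect the ranges were 1 to 26, 0 to 3, 0 to 1, 0 to 1, 0 to 6, 4 to 7, 17 to 27, 6 to 23, 1 to 4, 6 to 17 and 13 to 29. The ranges were 33 to 48 for the mean effect, 12 to 31 for the difference between day 12 and day 0 and 28 to 46 for that among populations. Where limma gave 0, from 4 to 18 types had an unadjusted p below 0.05.

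Without day 6 control SSEA1+ replicate 1, MERVL-int changed sign in day 6 SSEA1+ cells: its log2 value was 0.16 for the Ctcf shRNA effect, -0.42 against day 0 and -0.24 against Thy1+ cells. Without replicate 2 the values were -2.22, 1.96 and 2.14. Low scores limit the precision: 75 of 10516 values of these types are 0.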
